A study of Homo sapiens with 48 samples.

Results

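The genes examined were 4 transcription factors that drive the epithelial-mesenchymal transition (EMT), SNAI1, SNAI2, ZEB1 and ZEB2, and 6 genes that hold cells in the epithelial state against them, GRHL2, OVOL1, OVOL2, ESRP1, ESRP2 and ELF3. They were chosen by name, and all 10 were rows of the deposited table of 20241 genes. Of the 10, 6 were above the floor of the table and were tested, and GRHL2, OVOL1, OVOL2 and ESRP1 were listed at 0 in all 9 libraries. ESRP2 showed the largest change of the 6: it was 13.4-fold lower in cells freed of drug than in parental cells, and cells kept in drug lay in between. SNAI2 was the lowest of the 4 EMT factors and was at the floor in every library of the cells freed of drug.

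EMT is a programme in which epithelial cells give up cell-cell junctions and polarity and take on a mesenchymal, migratory form. SNAI1 and SNAI2 (Snail and Slug) and ZEB1 and ZEB2 are zinc finger repressors that bind E-box sequences in the promoters of epithelial genes, E-cadherin (CDH1) being the classic target. GRHL2, OVOL1 and OVOL2 are transcription factors that repress ZEB1, with which GRHL2 and OVOL2 stand in mutual repression, ESRP1 and ESRP2 are RNA-binding proteins that set the epithelial pattern of splicing, and ELF3 is an ETS factor of epithelial cells. In pancreatic carcinoma, EMT has been linked to spread and to drug tolerance.

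The samples were PSN1 cells, a human pancreatic cancer line, grown in 3 states with 3 libraries each. Parental cells were wild type and untreated. TalaR cells had been selected in rising amounts of Talazoparib, an inhibitor of the DNA repair enzyme PARP1. TalaR-M cells were kept in 50 nM Talazoparib, with 4 months given as the time, and TalaR-DF cells were TalaR cells then grown in medium without drug. The comparisons ask whether EMT genes differ in cells with acquired resistance and whether they return when the drug is taken away. No label says that the 3 libraries of a group came from separate selections, so the p-values measure the spread between libraries, which may be technical. Fewer cells of a kind and less RNA per cell cannot be told apart in such bulk samples.

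Levels are log2 CPM, where CPM is the number of reads on a gene relative to the effective size of its library, and where 0 means at most 1 CPM. That floor stood for 6.97 to 14.54 reads, in libraries of 8387755 to 14973847 reads on genes above it. TalaR-M replicate 2 was the shallowest library and stood apart from the other 2 of its group: Pearson's r between TalaR-M libraries, across genes, ran from 0.78 to 0.994, against 0.997 among parental and 0.993 among TalaR-DF libraries. It lay over 2-fold from the mean of the other 2 for 4858 of 10512 genes, 46.2%. Results for the members and the counts of each gene list are therefore given with and without this library.

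**Figure D1:**
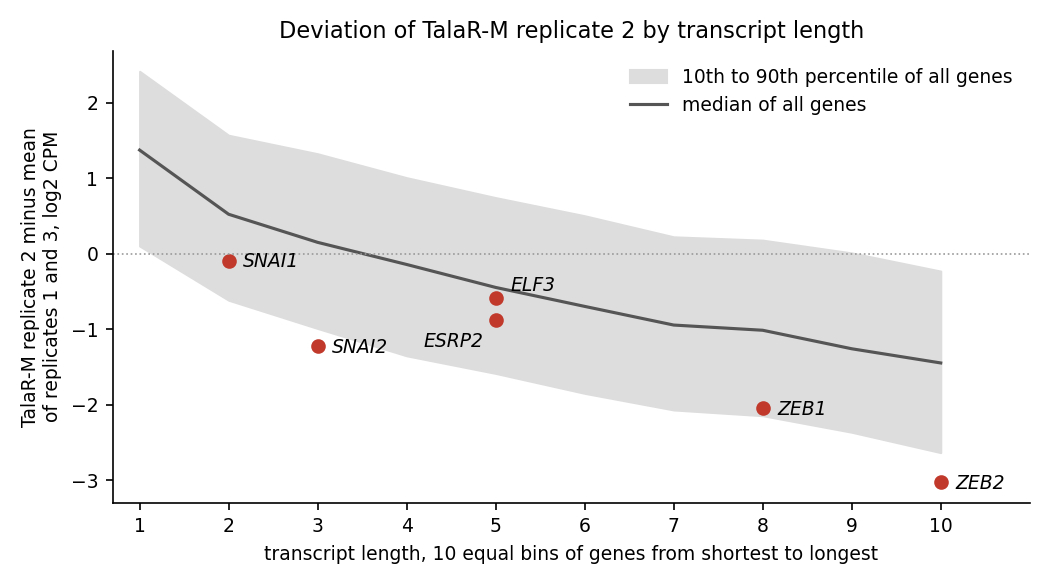
How far TalaR-M replicate 2 lay from the average of the other 2 TalaR-M libraries (log2 CPM, vertical axis) by transcript length, in 10 equal bins of genes from the shortest to the longest (horizontal axis). The line is the median of the genes in each bin, the band holds their central range (the lower and upper percentiles named in the key), and red points are the members tested. The median ran from 1.37 for the shortest transcripts to -1.45 for the longest, and ZEB2 lay lowest, at -3.03.

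The deviation of this library followed transcript length. ZEB1 and ZEB2, with canonical transcripts of 5937 and 9265 bases, were 2.05 and 3.03 lower there on the log2 scale than in the other 2 TalaR-M libraries, where genes of their length were lower by a median of 1.01 and 1.45. SNAI1, with a transcript of 1705 bases, differed by -0.10 against a median of 0.52 for its length. SNAI2 (2180 bases) differed by -1.23, ESRP2 (3429 bases) by -0.87 and ELF3 (3104 bases) by -0.58. ZEB2 and SNAI2 lay below the grey central range of genes of their length in the plot of the deviation. The values of ZEB1, ZEB2 and SNAI2 in TalaR-M cells thus depended most on whether this library was counted.

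The E-box that the SNAI and ZEB proteins bind was looked for before annotated start sites of the members, as the hexamer CACCTG or its reverse complement CAGGTG. The promoter table, from RefSeq on GRCh38.p14, held ZEB1, ZEB2 and ELF3, and the 250 bases before each start site were searched. SNAI1, SNAI2, GRHL2, OVOL1, OVOL2, ESRP1 and ESRP2 were not in it. The hexamer was present in 17.5% of 35116 promoter windows of this length. It was found 1 time before the start site listed for ELF3 and before 2 of the 7 start sites listed for ZEB1, and not in the window of ZEB2. Some of these starts lie inside the genes: in GENCODE 44, all 250 bases of the ELF3 window, of the ZEB2 window and of the ZEB1 window with 2 hexamers belong to exons of the same gene. The other ZEB1 window with the hexamer holds 0 bases of ZEB1 exon. The sites are shown because they are the letters that the EMT factors would read, with the hexamer in capitals and the strand of the gene written 5′ to 3′. Such a match is a description of the sequence and not a measured binding site.

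ELF3, chr1:202010455-202010484, + strand, within an ELF3 exon, 120 bases before an internal start: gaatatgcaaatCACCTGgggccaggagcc
ZEB1, chr10:31318348-31318377, + strand, before the gene, 57 bases before the first start: ccgaggtgacagCAGGTGagggccgggtgc
ZEB1, chr10:31318966-31318991, + strand, within a ZEB1 exon, 242 bases before an internal start: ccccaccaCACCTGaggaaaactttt
ZEB1, chr10:31319119-31319148, + strand, within the same exon, 85 bases before the same start: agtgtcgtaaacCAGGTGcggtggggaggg

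A difference was called at a Benjamini-Hochberg adjusted p under 0.05 from a limma fit of all 12471 genes that were above the floor in at least 3 libraries. In TalaR-M against parental cells, 2 of the 6 members tested were called, both lower (SNAI1 and ESRP2), where 23.6% of all genes tested were called, 10.3% higher and 13.2% lower. In TalaR-DF against parental cells, 2 were called, both lower (ESRP2 and ELF3), where 18.6% of all genes were, 6.77% higher and 11.8% lower. In TalaR-M against TalaR-DF cells, ESRP2 was called higher and no other member was called, where 12.0% of all genes were, 7.79% higher and 4.25% lower.

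Leaving out TalaR-M replicate 2, the counts were 4, 6 and 4 of the 6 members, and the shares of all genes called were 60.2%, 62.9% and 48.8%. The comparison of TalaR-DF with parental cells holds no TalaR-M library, but the 3 groups shared an estimate of the spread, so this library changed its calls as well. Libraries of the 2 groups did not overlap for 5 members in TalaR-M against parental cells, for 6 in TalaR-DF against parental cells and for 5 in TalaR-M against TalaR-DF cells. Over all genes tested, groups did not overlap for 49.8%, 68.5% and 40.8% of genes.

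**Figure D2:**
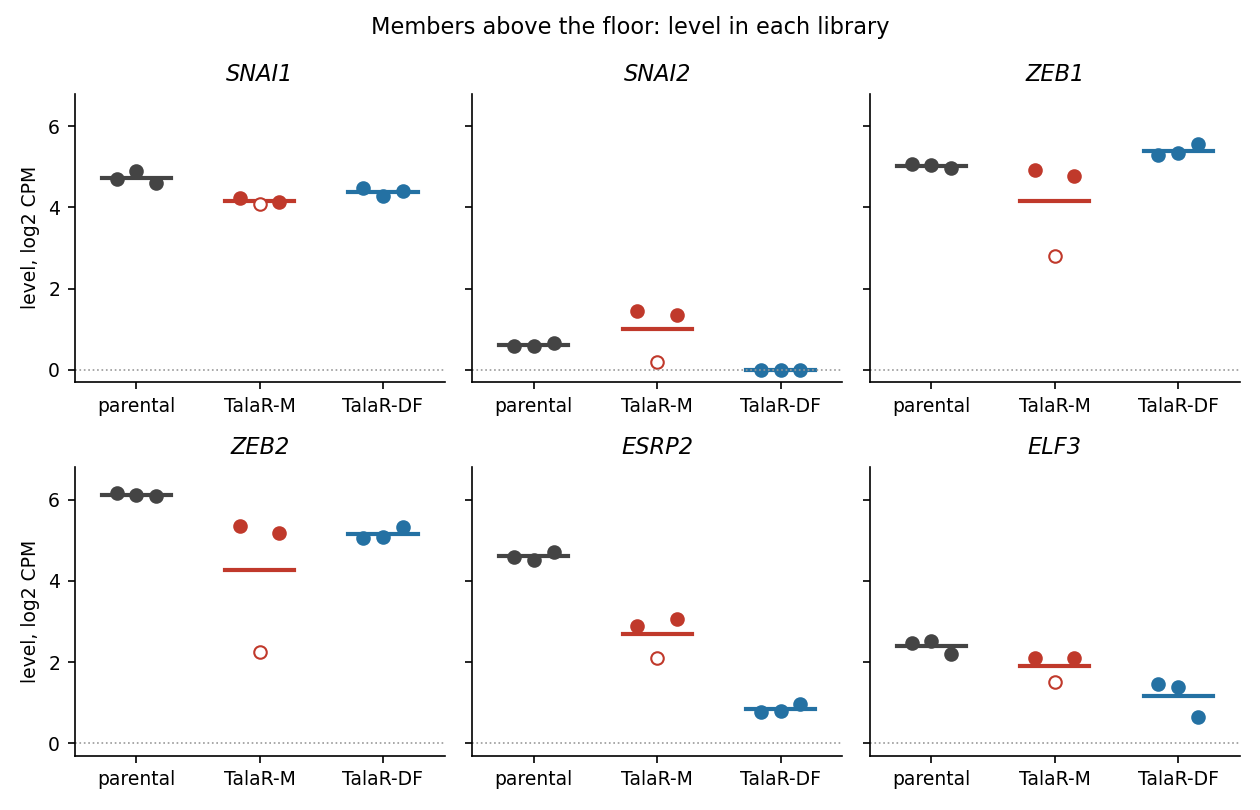
Level of the 6 members above the floor (log2 CPM, vertical axis) in each of the 9 libraries, by group. Points are libraries, in the order of replicates 1 to 3 from left to right, bars are group means, the open point is TalaR-M replicate 2 and the dotted line at 0 is the floor of the table. ESRP2 stood in 3 separate bands, parental above TalaR-M above TalaR-DF, and SNAI2 was at 0 in the 3 TalaR-DF libraries.

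ESRP2, the splicing regulator, lies on the minus strand of chr16:68229033-68238102 (GRCh38). In parental cells its level was 4.59, 4.51 and 4.71 log2 CPM in replicates 1 to 3. In TalaR-M cells the levels were 2.90, 2.11 and 3.07, and in TalaR-DF cells 0.79, 0.81 and 0.98. The 3 groups did not overlap: every parental value lay above every TalaR-M value, and every TalaR-M value above every TalaR-DF value. In reads, parental libraries held 316 to 353, TalaR-M libraries 32 to 117 and TalaR-DF libraries 23 or 24. The exact Poisson 95% interval of 24 reads, which covers counting error only, was 15.4 to 35.7.

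ESRP2 fell by 1.91 ± 0.24 on the log2 scale (SE, n = 3 and 3, limma adjusted p = 0.000852) in TalaR-M against parental cells, a 3.76-fold lower level. It fell by 3.75 ± 0.24 in TalaR-DF cells (limma adjusted p = 2.2e-05), 13.4-fold. TalaR-M cells were 1.84 ± 0.24 above TalaR-DF cells (limma adjusted p = 0.00226). Cells taken off the drug thus lay further from parental cells than cells kept in it. All 3 calls held without TalaR-M replicate 2, with differences of -1.62, -3.75 and 2.13.

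The limma adjusted p of ESRP2 over all the settings tried ranged from 1.13e-07 to 0.0104 in the first comparison, from 6.33e-13 to 0.000311 in the second and from 4.43e-08 to 0.0268 in the third. NFATC3, a calcineurin-responsive transcription factor gene on the opposite strand, shares 227 of the 3429 exonic bases of ESRP2, 6.62%. Whether the counting used the strand is not given in the sources used here. NFATC3 had levels of 5.62 to 5.64 in parental, 2.28 to 5.54 in TalaR-M and 5.87 to 6.04 in TalaR-DF cells. Its difference between TalaR-DF and parental cells was 0.30 and was not called in the fit of 9 libraries (limma adjusted p = 0.869). The NFATC3 values of these groups did not overlap. Whether shared reads affected the level of ESRP2 was not tested.

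ELF3, the epithelial ETS factor, lies on chr1:202007945-202017183, plus strand. Its levels were 2.46, 2.52 and 2.21 log2 CPM in parental, 2.10, 1.52 and 2.10 in TalaR-M and 1.46, 1.39 and 0.66 in TalaR-DF cells. Each TalaR-DF value was below each TalaR-M value, and TalaR-M values were below parental ones. ELF3 was a low gene, at 60 to 80 reads in parental, 21 to 66 in TalaR-M and 19 to 39 in TalaR-DF libraries.

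ELF3 fell by 1.23 ± 0.26 (SE) in TalaR-DF against parental cells, a 2.34-fold lower level (limma adjusted p = 0.0124). This call was lost when parental replicate 1 (adjusted p = 0.0529) or parental replicate 2 (adjusted p = 0.0546) was left out of the limma fit. The difference of TalaR-M from parental cells, -0.50 ± 0.26, did not pass the test (limma adjusted p = 0.197), nor without TalaR-M replicate 2, at -0.30 (0.253). From TalaR-DF to TalaR-M cells ELF3 differed by 0.73 (limma adjusted p = 0.107), and without that library 0.93, when it was called (0.00444). A lncRNA on the same strand, ENSG00000249007, shares 449 of the 3104 exonic bases of ELF3, 14.5%.

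GRHL2, OVOL1, OVOL2 and ESRP1 were listed at 0 in all 9 libraries, as were 7222 of the 20241 genes. At the depth of these libraries, a value of 0 allowed up to 6 reads in TalaR-M replicate 2 and 11 to 14 in the others, so that smaller amounts were not detectable. GRHL2 (chr8:101492439-101669726) and ESRP1 (chr8:94641074-94707466) lie on 1 chromosome, OVOL1 at chr11:65787063-65797214 and OVOL2 at chr20:17956979-18059188. ESRP2 was thus measured without ESRP1, and neither OVOL gene nor GRHL2 could be followed between the groups. CDH1 was also at 0 in all 9 libraries.

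SNAI1 (Snail) lies on chr20:49982980-49988886, plus strand. Its levels were 4.70, 4.89 and 4.60 log2 CPM in parental, 4.23, 4.08 and 4.12 in TalaR-M and 4.47, 4.28 and 4.39 in TalaR-DF cells. All 6 values of TalaR cells were below the lowest parental value, and TalaR-M lay below TalaR-DF without overlap. SNAI1 fell by 0.58 ± 0.14 (SE, n = 3 and 3) in TalaR-M against parental cells, a 1.5-fold lower level (limma adjusted p = 0.019).

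This SNAI1 call held without TalaR-M replicate 2 (-0.55, limma adjusted p = 0.00101). It was lost without parental replicate 1 (limma adjusted p = 0.0669) or parental replicate 2 (0.0907), in a fit of only the 2 groups compared (0.0735) and with the replicate number as a block (0.0535). The SNAI1 difference between TalaR-DF and parental cells, -0.34 ± 0.14, did not pass (limma adjusted p = 0.14). The same difference was called without TalaR-M replicate 2, with adjusted p = 0.00852. TalaR-M and TalaR-DF cells differed by -0.24 in SNAI1 (limma adjusted p = 0.273), and by -0.20 without that library (0.143). The annotation names a SNAI1 pseudogene, SNAI1P1, with which reads could be shared.

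SNAI2 (Slug) lies on chr8:48917598-48921740, minus strand. It was the lowest of the 4 EMT factors: its levels were 0.59, 0.60 and 0.67 log2 CPM in parental, 1.46, 0.18 and 1.36 in TalaR-M and 0 in each TalaR-DF library. In reads these were 20 or 21 in each parental library, 42, 8 and 35 in the TalaR-M libraries, and at most 11 to 13 in each TalaR-DF library. TalaR-M replicates 1 and 3 were above all parental libraries and replicate 2 was below them, so the 2 groups overlapped. Both groups were above TalaR-DF in every library.

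The SNAI2 difference between TalaR-M and parental cells was 0.38 ± 0.30 (SE) and was not called (limma adjusted p = 0.371). Without TalaR-M replicate 2 it was 0.79 ± 0.13, a 1.73-fold higher level with n = 2 and 3, and was called (limma adjusted p = 0.000241). TalaR-DF cells, at the floor, were at least 1.53-fold lower than parental cells, and this was not called in the fit of 9 libraries (limma adjusted p = 0.224). It was called without TalaR-M replicate 2 (0.00058), with the same values in both groups. TalaR-M cells were at least 2.00-fold above TalaR-DF cells (limma adjusted p = 0.0698), and at least 2.65-fold without that library (4.51e-06). With all libraries, TalaR-DF cells were called against parental cells with a pseudocount of 1 CPM (limma adjusted p = 0.0027) or 8 CPM (0.0185). They were called against TalaR-M cells too (0.0016 and 0.0080). These settings took values at the floor as 0 CPM. A fit of only the 2 groups called the difference from parental cells (0.00012) and not that from TalaR-M cells (0.216). Rescaling by the median ratio did the reverse (0.0835 and 0.013). Counting error was wide for so few reads. The exact Poisson interval was 24.4 to 48.7 reads in TalaR-M replicate 3 and 13.0 to 32.1 in parental replicate 1, which overlap. The TalaR-DF values, all at the floor, showed no spread and entered the estimate of spread that the groups share. The SNAI2 standard error and adjusted p values without TalaR-M replicate 2, and the call in the fit of only 2 groups, may therefore overstate certainty.

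ZEB1 lies on chr10:31318495-31529814, plus strand. Its levels were 5.06, 5.05 and 4.96 log2 CPM in parental, 4.93, 2.80 and 4.77 in TalaR-M and 5.28, 5.35 and 5.57 in TalaR-DF cells. TalaR-DF was the highest group in every library, and TalaR-M replicates 1 and 3 lay just below the parental values. ZEB1 was the 1 member with a higher level in TalaR-DF than in parental cells, by 0.37 ± 0.50 (SE), which was not called with all libraries (limma adjusted p = 0.713). When TalaR-M replicate 2 was left out, its standard error fell to 0.09 and it was called (0.00281), at 1.30-fold.

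ZEB1 was not called in TalaR-M against parental cells, at -0.86 (limma adjusted p = 0.238) with TalaR-M replicate 2 and -0.17 (0.146) without it. Between TalaR-M and TalaR-DF cells the ZEB1 difference was -1.23 (limma adjusted p = 0.144), and -0.55 without that library, when it was called (0.00074).

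ZEB2 lies on chr2:144364364-144521057, minus strand. Its levels were 6.16, 6.10 and 6.09 log2 CPM in parental, 5.34, 2.24 and 5.18 in TalaR-M and 5.05, 5.09 and 5.32 in TalaR-DF cells. All TalaR values were below all parental values, and, TalaR-M replicate 2 aside, the TalaR-M and TalaR-DF values overlapped. The ZEB2 difference between TalaR-M and parental cells was -1.86 ± 0.72 (SE) and did not pass (limma adjusted p = 0.0977). Without replicate 2 it was smaller, -0.86 ± 0.09, and was called (8.35e-06), a 1.81-fold lower level. It was also called without TalaR-M replicate 1 (-2.41, limma adjusted p = 0.0487).

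In TalaR-DF against parental cells ZEB2 differed by -0.96 (limma adjusted p = 0.455), and without TalaR-M replicate 2 this 1.95-fold lower level was called (1.14e-06). Between TalaR-M and TalaR-DF cells the sign of the ZEB2 difference turned, from -0.90 with TalaR-M replicate 2 (limma adjusted p = 0.39) to 0.11 without it (0.355). The ZEB2 transcript shares 181 exonic bases, 1.95%, with the antisense gene ZEB2-AS1, and the annotation names a pseudogene, ZEB2P1.

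**Figure D3:**
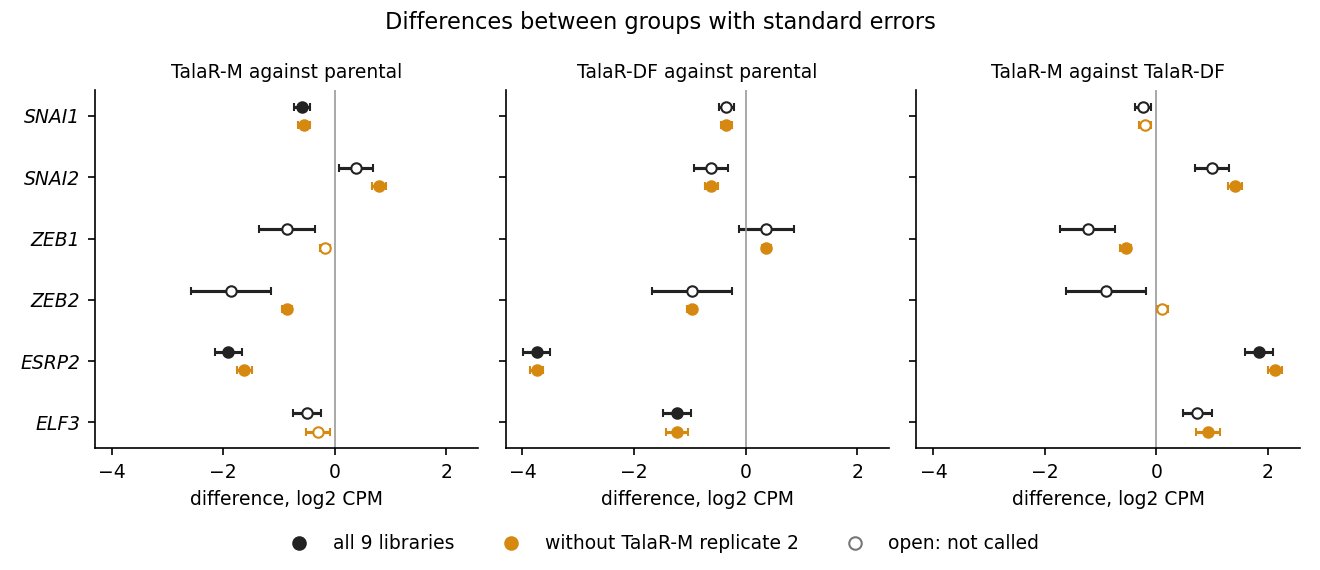
Differences between groups (log2 CPM, first group minus second, horizontal axis) for the 6 members tested, with standard errors, from the fit of 9 libraries (black) and without TalaR-M replicate 2 (orange). Filled points were called at an adjusted p under 0.05 and open points were not. ESRP2 was called in all 3 comparisons under both fits, and ZEB2 was the member whose sign turned, between TalaR-M and TalaR-DF cells.

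Set against each other per kilobase of canonical transcript, the members ranked from SNAI1 down to SNAI2 in parental cells. SNAI1 had 15.6 ± 1.62 CPM per kilobase (SD, n = 3), ZEB2 7.50 ± 0.21, ESRP2 7.10 ± 0.50, ZEB1 5.47 ± 0.21, ELF3 1.71 ± 0.19 and SNAI2 0.70 ± 0.02. ZEB2 (7.34 to 7.74) and ESRP2 (6.64 to 7.62) overlapped between libraries, and the other neighbours in this order did not.

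In TalaR-DF cells the order per kilobase was SNAI1 at 12.2 ± 0.82, ZEB1 at 7.12 ± 0.77, ZEB2 at 3.86 ± 0.40, ELF3 at 0.75 ± 0.21 and ESRP2 at 0.53 ± 0.04, with SNAI2 at the floor. ELF3 (0.507 to 0.887) and ESRP2 (0.503 to 0.574) overlapped there. ESRP2, close to ZEB2 in parental cells, was the lowest of those above the floor in TalaR-DF cells, and ZEB1 stood above ZEB2. In TalaR-M replicates 1 and 3, the order of the means was SNAI1 (10.6), ZEB1 (4.86), ZEB2 (4.15), ESRP2 (2.31), ELF3 (1.38) and SNAI2 (1.22).

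**Figure D4:**
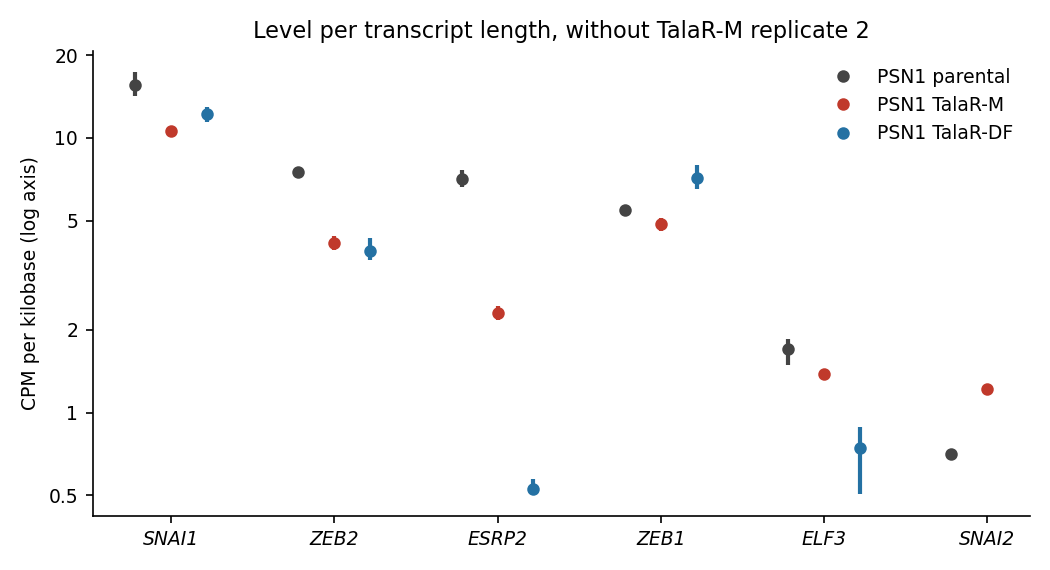
Level per transcript length (CPM per kilobase of canonical transcript, log axis) of the members above the floor, in parental (n = 3), TalaR-M (n = 2, without replicate 2) and TalaR-DF (n = 3) cells. Points are means and bars run from the lowest to the highest library. ESRP2 fell from 7.10 in parental to 0.53 in TalaR-DF cells, and SNAI2 has no point in TalaR-DF cells because it was at the floor.

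The genes whose pattern was most like that of each member were read from Pearson's r over the 8 libraries other than TalaR-M replicate 2. These r describe mostly the 3 group levels and carry no test. For ESRP2 they were KDR, a receptor of vascular endothelial growth factor (r = 0.998), FRS2 (0.997) and FNDC4 (0.997), and 388 genes had an r above 0.95. KDR had levels of 3.88 in parental, 2.25 in TalaR-M and 0 in TalaR-DF cells. For SNAI2 they were SCARA3 (r = 0.998), HLA-DRA, a chain of the class II antigen-presenting molecule (0.998), and TSPAN9 (0.997). HLA-DRA ran from 6.18 in parental to 7.40 in TalaR-M and 5.19 in TalaR-DF cells.

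For ZEB2 the most alike genes were ZNF217 (r = 0.997), LYRM5 (0.997) and S100A3 (0.995), for ZEB1 ADD3 (0.992) and DDX46 (0.987), for ELF3 CIB2 (0.987), GSDMD (0.982) and ETFB (0.982), and for SNAI1 INPP5B (0.979), LAMTOR5 (0.969) and TMEM189 (0.969). Few genes followed SNAI1: 14 had an r above 0.95, against 677 for ZEB2.

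Other genes of the network were counted in lists by role, of which the list medians and counts are descriptions. Of 20 other factors that can induce EMT, 14 were tested, and 6 were called in TalaR-M against parental cells, all lower with 9 libraries, where 23.6% of all genes were called. The median difference was -0.82 over the 14, against -0.09 over all genes tested. In TalaR-DF against parental cells 5 were called lower and 1 higher (median -0.31 against 0.02), and between TalaR-M and TalaR-DF cells 1 was called in each direction (median -0.22 against -0.09). Leaving out TalaR-M replicate 2, 3 were called higher and 7 lower in the first comparison (median -0.46), 4 higher and 9 lower in the second and 2 higher and 4 lower in the third (median -0.003), where 60.2%, 62.9% and 48.8% of all genes were called. TWIST1 and TWIST2, helix-loop-helix inducers of EMT, and KLF8 were at 0 throughout.

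SOX4, a SOX factor that acts downstream of TGFβ, fell with the same order of groups as ESRP2: 5.63 ± 0.04 log2 CPM in parental, 4.56 ± 0.13 in TalaR-M and 2.70 ± 0.20 in TalaR-DF cells (SD, n = 3 each). PRRX1, a homeobox factor of mesenchyme, fell from 2.21 ± 0.09 in parental cells to 0 in all TalaR-M libraries, and TBX3 and FOXC1 fell in both TalaR states, TBX3 by 1.89 in TalaR-M (limma adjusted p = 0.00148) and 1.59 in TalaR-DF cells (0.00421). FOXC1 fell by 1.67 (limma adjusted p = 0.00266) and 1.08 (0.0238). Without TalaR-M replicate 2 the TalaR-M differences were smaller, at -1.55 for TBX3 and -1.35 for FOXC1.

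Of 18 other epithelial transcription factors, 8 were tested and 8 were at 0 in all libraries. The counts were 3 higher and 3 lower in TalaR-M against parental cells (median 0.15), 1 higher and 4 lower in TalaR-DF against parental cells (median -0.57) and 3 higher and 1 lower in TalaR-M against TalaR-DF cells (median 0.22), where 23.6%, 18.6% and 12.0% of all genes were called. They were 4 and 3 (median 0.43), 1 and 5, and 5 and 1 (median 0.63) without TalaR-M replicate 2. Of all genes, 60.2%, 62.9% and 48.8% were then called. GRHL3 and HNF4A, called lower in both TalaR states, were above the floor in parental libraries only, so that group alone brought them past the filter. GRHL3 was near the floor there too, at 0.71 ± 0.29. FOXA2 fell from 4.64 ± 0.03 in parental to 1.17 ± 0.28 in TalaR-M and 2.52 ± 0.25 in TalaR-DF cells, and HNF4A, a hepatic and pancreatic nuclear receptor, from 3.08 ± 0.27 to 0 in both TalaR states. EHF, an ETS relative of ELF3, moved the other way: it was 0.05 ± 0.06 in parental and rose to 2.10 ± 0.85 in TalaR-M cells (limma adjusted p = 0.00975). TFAP2A did not pass between TalaR-M and parental cells (0.21, limma adjusted p = 0.523) and fell by 1.95 in TalaR-DF cells (0.000765).

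Among 28 cofactors of SNAI and ZEB proteins and enzymes of their turnover, 27 were tested, with 4 lower and 0 higher in TalaR-M against parental cells (median -0.32), 3 higher and 1 lower in TalaR-DF against parental cells (median 0.13) and 0 higher and 4 lower in TalaR-M against TalaR-DF cells (median -0.53). The share called, 14.8% in each comparison, was below that of all genes in the first 2 (23.6% and 18.6%) and near it in the third (12.0%). The one-sided counts were not kept without TalaR-M replicate 2, where 6 were higher and 8 lower (median -0.05), 11 higher and 4 lower, and 2 higher and 9 lower (median -0.15). Those shares, 51.9%, 55.6% and 40.7%, compare with 60.2%, 62.9% and 48.8% of all genes. CTBP2, a corepressor recruited by ZEB proteins, rose by 1.01 in TalaR-DF against parental cells (limma adjusted p = 0.0197). FBXO45, part of a ubiquitin ligase that degrades EMT factors, rose by 0.88 (limma adjusted p = 0.00423). SIN3A, a scaffold of histone deacetylases, and LIMD1, a LIM protein that binds Snail factors, fell in TalaR-M cells, by 1.18 (limma adjusted p = 0.0456) and 0.79 (0.0317). Their differences were smaller without TalaR-M replicate 2, at -0.70 and -0.54.

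Of 45 epithelial genes that the EMT factors repress or the antagonists sustain, 31 were tested and 14 were at 0 in all libraries, CDH1 and the tight junction and polarity genes CRB3, CLDN6, MARVELD3 and TJP3 among them. In TalaR-M against parental cells 8 were called higher and 5 lower (median 0.52 against -0.09 over all genes), and in TalaR-DF against parental cells 2 higher and 11 lower (median -0.07 against 0.02). Between TalaR-M and TalaR-DF cells 14 were higher in TalaR-M and 0 lower (median 1.14 against -0.09). The shares called, 41.9%, 41.9% and 45.2% of the 31, compare with 23.6%, 18.6% and 12.0% of all genes. Without TalaR-M replicate 2 the counts were 17 and 6, 8 and 14, and 25 and 1. Those shares were 74.2%, 71.0% and 83.9%, against 60.2%, 62.9% and 48.8% of all genes. The counts include CLDN7, above the floor in parental libraries only, and CDS1, above it in TalaR-M libraries only. Each passed the filter through that group alone.

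Against parental cells, epithelial genes did not move as a block. SPINT2, a protease inhibitor of epithelia, followed the order of ESRP2, at 5.99 ± 0.05, 5.25 ± 0.27 and 3.16 ± 0.36 in parental, TalaR-M and TalaR-DF cells. JUP, or plakoglobin, fell by 2.21 in TalaR-M (limma adjusted p = 4.96e-06) and 2.75 in TalaR-DF cells (1.98e-06). PKP2, a desmosome protein, rose from 2.45 ± 0.20 to 5.19 ± 1.26 and 4.99 ± 0.15, and its difference between TalaR-M and parental cells was 2.74 with TalaR-M replicate 2 and 3.47 without it. KRT19, a keratin of ducts, was higher in TalaR-M cells, at 8.42 ± 0.96, than in parental (5.80 ± 0.03) or TalaR-DF cells (5.83 ± 0.14), and without TalaR-M replicate 2 the difference from parental cells was 2.07 in place of 2.62.

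Of 41 mesenchymal genes, 37 were tested. In TalaR-M against parental cells 8 were called higher and 13 lower (median -0.26 against -0.09 over all genes). In TalaR-DF against parental cells 4 were higher and 16 lower (median -0.66 against 0.02). In TalaR-M against TalaR-DF cells 12 were higher and 3 lower (median 0.34 against -0.09). The shares called, 56.8%, 54.1% and 40.5% of the 37, compare with 23.6%, 18.6% and 12.0% of all genes. Without TalaR-M replicate 2 the counts were 17 and 17, 7 and 27, and 23 and 6. Those shares were 91.9%, 91.9% and 78.4%, against 60.2%, 62.9% and 48.8% of all genes. The counts include COL5A1, above the floor in parental libraries only, and DCN, above it in TalaR-M libraries only. Each passed the filter through that group alone. COL1A2, a chain of type I collagen, was at 7.86 ± 0.02 in parental and 3.77 ± 0.12 in TalaR-DF cells, and at 0 in all TalaR-M libraries. COL1A1, another type I collagen chain, went the other way in TalaR-M cells. It was at 6.50 ± 0.05 in parental, 8.47 ± 0.30 in TalaR-M and 3.82 ± 0.15 in TalaR-DF cells. LUM and PDGFRB fell in both TalaR states, LUM by 3.50 (limma adjusted p = 0.000144) and 1.78 (0.00704). POSTN, or periostin, rose from 4.45 ± 0.10 in parental to 8.12 ± 0.13 in TalaR-DF cells.

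The classic markers of EMT differed among themselves. CDH2, or N-cadherin, rose by 1.98 in TalaR-M (limma adjusted p = 0.00567) and by 2.91 in TalaR-DF cells (0.000926), from a parental level of 0.22 ± 0.27. VIM, or vimentin, was at 9.36 ± 0.06, 9.11 ± 0.78 and 8.99 ± 0.10 in parental, TalaR-M and TalaR-DF cells, and was not called in either comparison with parental cells (limma adjusted p = 0.594 and 0.559). FN1, or fibronectin, was at 12.4 ± 0.03, 11.2 ± 1.46 and 10.9 ± 0.19, and was not called either (limma adjusted p = 0.187 and 0.132). Without TalaR-M replicate 2, VIM and FN1 were called lower in both TalaR states, VIM by -0.70 and -0.37 and FN1 by -0.36 and -1.54.

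ESRP proteins act on splicing, which gene totals do not show. Of 15 genes whose exons they are known to regulate, 14 were tested, and FGFR2 was at 0 in all libraries. In TalaR-M against parental cells 2 were called, CD44 and NUMB, both lower (median -0.55), where 23.6% of all genes were called. Without TalaR-M replicate 2, 2 were higher and 6 lower (median -0.14), 57.1% of the 14 against 60.2% of all genes. In TalaR-DF against parental cells, where ESRP2 fell most, none of the 14 was called by limma with 9 libraries (median -0.07). The share of all genes called there was 18.6%, and 4 of the 14 had an unadjusted p under 0.05. Without TalaR-M replicate 2, 4 higher and 4 lower were called, 57.1% against 62.9% of all genes. Between TalaR-M and TalaR-DF cells none was called by limma (median -0.36), where 12.0% of all genes were. An unadjusted p under 0.05 was seen for 3. Without that library 3 were called higher and 4 lower, 50.0% against 48.8% of all genes. NUMB, an inhibitor of Notch, fell by 1.36 in TalaR-M cells (limma adjusted p = 0.0206), and CD44, the hyaluronan receptor, by 0.59 (0.0439). Their differences were smaller without TalaR-M replicate 2, at -0.91 and -0.43.

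Of 15 other splicing regulators that act in EMT, all tested, 2 were called higher and 1 lower in TalaR-M against parental cells (median 0.01), 3 higher in TalaR-DF against parental cells (median 0.24) and 1 lower in TalaR-M against TalaR-DF cells (median -0.43). These 3, 3 and 1 of 15 compare with 23.6%, 18.6% and 12.0% of all genes. With TalaR-M replicate 2 left out, 5 were higher and 5 lower (median 0.002), 10 higher and 1 lower, and 1 higher and 13 lower (median -0.29). Those shares, 66.7%, 73.3% and 93.3%, compare with 60.2%, 62.9% and 48.8% of all genes. RBM47, an RNA-binding protein of epithelial cells, rose from 4.41 ± 0.05 in parental to 5.14 ± 0.28 in TalaR-M and 5.92 ± 0.07 in TalaR-DF cells, the opposite order to ESRP2. NOVA1, a splicing factor best known from neurons, was at 0 in parental cells and rose to 2.20 ± 0.43 and 1.56 ± 0.22. SRSF1 rose by 0.54 in TalaR-DF cells (limma adjusted p = 0.00826), and PTBP2 fell by 1.15 in TalaR-M cells (0.0304). The PTBP2 difference was smaller without TalaR-M replicate 2, at -0.77.

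**Figure D5:**
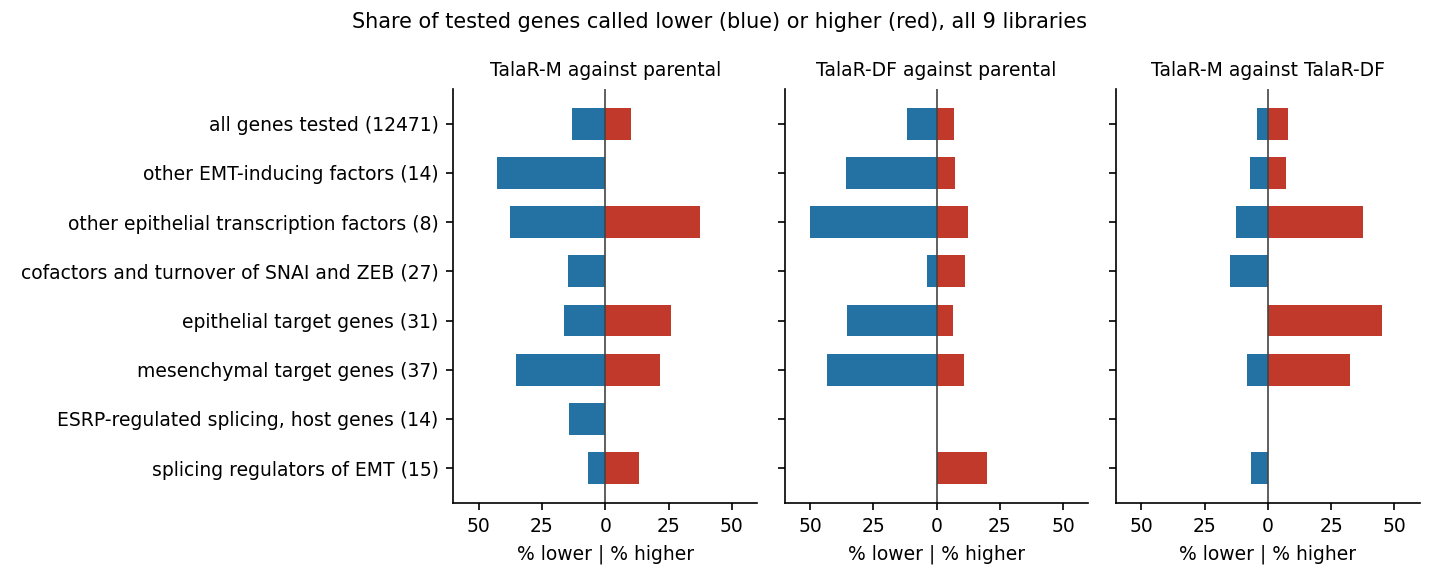
Share of the genes tested in each list that was called lower (blue, to the left) or higher (red, to the right), in percent, in the 3 comparisons with all 9 libraries, with the number tested in brackets and all genes tested in the top row. Epithelial target genes were called 14 higher and 0 lower of 31 in TalaR-M against TalaR-DF cells, and other EMT-inducing factors 0 higher and 6 lower of 14 in TalaR-M against parental cells.

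The cells carried the keratins of pancreatic ductal carcinoma together with genes of other lineages. The 12 ductal markers summed to 1200 to 1260 CPM in parental, 1930, 5830 and 1780 in TalaR-M replicates 1 to 3 and 1020 to 1150 in TalaR-DF libraries, with CEACAM6 and S100P among those at 0. The 9 fibroblast markers summed to 1560 to 1630 CPM in parental and 899 to 1020 in TalaR-DF libraries, and to 1230 in TalaR-M replicate 2 against 3350 and 3410 in the other 2 TalaR-M libraries, with FAP, THY1 and ACTA2 at 0. The 8 leukocyte markers summed to 14.8 to 18.0, 4.14 to 7.11 and 1.18 to 2.55 CPM, with CD3E, CD68, LYZ and ITGAM among those at 0, and the 6 endothelial markers to 28.9 to 32.1, 5.91 to 10.3 and 2.92 to 3.24 CPM, with VWF and CLDN5 at 0. The ductal and fibroblast sums follow their highest genes. In parental cells COL3A1 was at 10.36 log2 CPM and the next fibroblast marker, COL1A1, at 6.50. KRT8 (9.18) and KRT18 (8.04) were the highest ductal markers. In TalaR-M against parental cells LUM differed by -3.50, PDGFRB by -2.93 and COL1A1 by 1.97, with 2 fibroblast markers called higher and 3 lower. These sums therefore do not measure the share of a lineage.

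In the same order of groups as ESRP2, CD14, in the leukocyte list, ran at 3.72 ± 0.22, 1.77 ± 0.92 and 0.48 ± 0.21 log2 CPM, and PECAM1, in the endothelial list, at 3.79 ± 0.05, 2.25 ± 0.28 and 1.62 ± 0.08. CSF1R, the other leukocyte marker called, did not show that order. It was above the floor in parental cells only and differed from them by -1.75 in both TalaR states. Of the leukocyte markers 3 were tested and 2 called lower in each TalaR state against parental cells, and of the endothelial markers likewise 2 of 3. The ductal list had 2 higher and 2 lower of 8 in TalaR-M and 1 higher and 3 lower in TalaR-DF cells, and the fibroblast list 2 higher and 3 lower of 6, and 0 higher and 3 lower. Counted without TalaR-M replicate 2 against parental cells, the ductal list had 4 higher and 3 lower in TalaR-M and 1 and 4 in TalaR-DF cells, the fibroblast list 3 and 3, and 0 and 5, the leukocyte list 1 and 2, and 0 and 2, and the endothelial list 0 and 2 in both. Of all genes, 23.6% in TalaR-M and 18.6% in TalaR-DF cells were called against parental cells, and 60.2% and 62.9% without that library. The third leukocyte marker tested, PTPRC, went the other way, at 0 in parental, 0.87 ± 0.89 in TalaR-M and 0.02 ± 0.03 in TalaR-DF cells, and its difference of 0.87 between TalaR-M and parental cells was not called (limma adjusted p = 0.126), but was called at 1.31 without TalaR-M replicate 2 (0.000333). The part of these markers in the differences of ESRP2 and ELF3 was not tested.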

How the data were processed

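PSN1 libraries of the parental, TalaR-M and TalaR-DF states were analysed, 3 in each state. Per the labels, poly(A) RNA was made into stranded libraries, which were read from both ends over 150 bases, and the submitters' processing notes name the build hg38. The aligner, the counting and the annotation are not given in the sources used here. The values that the authors deposited are log2 CPM of an effective library size with a small prior count, and every value under 0 had been set to 0; this was read from the equal steps between values, and under 50 CPM 100% of values gave whole reads within 0.05. Columns named for maintenance in drug were read as TalaR-M and those named for withdrawal as TalaR-DF. The table was 1 of the series' data sets, and 9 of the 48 samples were analysed.

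The members and lists were chosen with earlier results of these data known, including that TalaR-M replicate 2 stood apart. Tests used limma (version 3.58.1, R 4.3.3), in 1 model of the 3 groups with a mean-variance trend and moderated two-sided tests, over 12471 genes above 0 in at least 3 libraries, with no pseudocount added, and called at a Benjamini-Hochberg adjusted p under 0.05. Where a group was at 0, its fold change is given as a lower bound. A gene above 0 only in the 3 libraries of a single group also passed the filter, and its other groups then had no spread. An exact permutation test of 3 against 3 libraries cannot go below p = 0.1, so none was used. The text names all 10 members, CDH1, VIM, FN1 and CDH2, up to 4 genes of each list with the largest difference among those called against parental cells, and the 3 genes most like each member, of which some are not reported here. NFATC3 was named for its overlap with ESRP2, and the genes at 0 and those of the marker lists for their absence. Locations are from GENCODE 44 on GRCh38. The fit was tested on simulated data in which no library deviated by transcript length, so that test does not cover the effect of TalaR-M replicate 2.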

Additional observations from a re-analysis of the deposited data

How the results depend on the processing

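ESRP2 kept its call and direction in all 3 comparisons under every setting tried. Of the values of single members under other settings, ESRP2 included, 281 stayed on the same side of the threshold, 29 were called where they had not been, 6 lost their call and 2 changed sign. Those 2 were ZEB2 in TalaR-M against TalaR-DF cells, at 0.077 with array weights and 0.11 without TalaR-M replicate 2, the highest of a leave-one-out range whose lowest value was -1.45 without TalaR-M replicate 1, neither of the 2 called (limma adjusted p = 0.667 and 0.355). Array weights gave TalaR-M replicate 2 a weight of 0.0133.

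The main counts were 2938 genes in TalaR-M against parental, 2315 in TalaR-DF against parental and 1502 in TalaR-M against TalaR-DF cells, with 2, 2 and 1 members. Array weights gave 7430, 8150 and 5439 genes and 4, 6 and 4 members. Fits of only the 2 groups compared gave 1724, 7755 and 591 genes, with 1 member in the first comparison and 6 in the second. A 2-fold minimum gave 1653, 1214 and 864 genes, and 1 member in the first comparison. Members in TalaR-M against TalaR-DF cells numbered 2 with a pseudocount of 1 CPM or of 8 CPM and 3 after rescaling by the median ratio, which moved the median of all genes from -0.09 to 0.02 in TalaR-M against parental and from -0.09 to 0.07 in TalaR-M against TalaR-DF cells. A minimum of 5 CPM in 3 libraries left 1 member in TalaR-DF against parental cells, and gave no value for SNAI2 and ELF3, which it removed.

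Leaving out 1 library gave 1801 to 7506, 1406 to 7850 and 724 to 6084 genes, and 1 to 4, 1 to 6 and 1 to 4 members. The highest counts were without TalaR-M replicate 2. Without parental replicate 1, 2 or 3 the counts were 1801, 1807 and 1841 genes in the first comparison, 1406, 1441 and 1439 in the second and 995, 1000 and 993 in the third, and without TalaR-DF replicate 1, 2 or 3 they were 1490, 1481 and 1428 in the second and 790, 756 and 724 in the third.

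The replicate numbers were not used to pair the samples in the main fit. The correlations of the deviations of same-numbered libraries ran from -0.417 to 0.217, and from -0.134 to 0.152 between TalaR-DF and parental libraries. Deviations within TalaR-M were shaped by replicate 2, so these correlations cannot exclude a pairing. With the replicate block, 999 genes were called in TalaR-M against TalaR-DF cells, and 1 member, ESRP2, in TalaR-M against parental cells, where SNAI1 had an adjusted p of 0.0535 by limma. Depth set the limit for SNAI2 in TalaR-DF cells, since 1 CPM was 6.97 to 14.54 reads over the 9 libraries. ESRP2 lay above the floor there, at 23 or 24 reads.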
